A study of Mus musculus with 12 samples.

Results

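Mouse bone marrow-derived macrophages that had spent 16 h in medium with methylsuccinic acid were compared, across all genes, with macrophages kept in medium alone. The comparison uses 6 of the 12 libraries of the series, chosen by their treatment labels: 3 of methylsuccinic acid (MetSA) and 3 of medium (M), and 14113 of the 32285 genes in the count table passed the filter on low counts. All cells were wild type (WT). The compound was added to RPMI medium from a 50 mM stock to 5 mM, M cells received no compound, and no other stimulus is given for either group. The remaining libraries are 3 of itaconic acid (IA) and 3 of malonic acid (MA), both also at 5 mM for 16 h, and they serve here to test where MetSA differs from its relatives. The series describes the replicates as biological, without saying which animals or cultures they came from, so the p-values measure the spread between these samples.

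Activated macrophages turn cis-aconitate, an intermediate of the citric acid cycle, into itaconic acid with the enzyme ACOD1. Its carbon-carbon double bond makes it a weak electrophile that can modify cysteines, and it also inhibits succinate dehydrogenase. Methylsuccinic acid has the same carbon skeleton with that double bond reduced, and malonic acid, a shorter dicarboxylic acid without the methyl branch, is a classical inhibitor of succinate dehydrogenase. Macrophages sense viral nucleic acids with receptors that induce type I interferon. Interferon then signals through JAK kinases, STAT factors and IRF9 to the interferon-stimulated response element (ISRE) in the promoters of antiviral genes, and tonic interferon keeps these genes at a low level in resting cells.

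The libraries held 46892488 to 54252486 counts. Macrophage genes marked the cells as labelled: the summed level of 22 macrophage markers was 31767 to 34357 CPM with M and 36175 to 41851 CPM with MetSA, where CPM is a gene's count relative to the scaled size of its library. Of the markers of other cells, 13 of 14 for neutrophils, 12 of 12 for dendritic cells, 8 of 12 for stromal cells, 6 of 14 for lymphocytes, 4 of 10 for mast cells and 4 of 12 for red cells and megakaryocytes had enough counts to be tested. The size of the response differed between the MetSA replicates. On the first principal component, which held 42.2% of the variance of all 12 libraries, the M libraries lay at -31.2, -23.8 and -23.3 and the MetSA libraries at 30.1, 25.8 and 15.3, so that MetSA replicate 3 lay nearest to M. This library also stood apart on the third component, at 32.7 where the other MetSA libraries lay at 2.46 and 8.90. Mitochondrially encoded mRNAs took 1.21%, 1.15% and 1.36% of the counts in M and 0.759%, 0.833% and 1.28% in MetSA, where replicate 3 was at the level of M. Results are therefore given with and without MetSA replicate 3 for many of those it moved, and not every smaller move is given. In the sentences below, 3 values in a row are the CPM of replicates 1, 2 and 3, and log2 fold changes of MetSA over M carry their standard error from the edgeR fit of all 4 groups.

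Methylsuccinic acid changed 2989 genes against medium at an edgeR quasi-likelihood adjusted p below 0.05, which is 21.2% of the genes tested. Of these, 1785 rose (12.6% of all genes tested) and 1204 fell (8.53%). These 2 shares are the measure for the calls of MetSA against M in every list below. The rises were larger: 403 genes rose and 96 fell by at least 2-fold, while the median log2 fold change over all genes tested was -0.01. With upper-quartile scaling of the libraries, in place of TMM, the split turned to 1385 higher and 1895 lower. Without MetSA replicate 3 the counts were 1758 and 1224, and 2541 of the 2989 genes were among the 2982 called in that fit. Without M replicate 1 the lower calls dropped to 725. Genes named as changed were chosen by a rule, and members of a list that are named as not passing the test were chosen after their values were seen.

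The largest rises were in genes induced by interferon. Slfn1, a Schlafen gene (chr11:83116849-83122670, plus strand), had the largest rise of those at 10 CPM or more with no overlap between groups, at 1.53, 2.69 and 3.06 CPM in the M libraries and 67.3, 54.7 and 29.4 CPM in the MetSA libraries (log2 fold change 4.37 ± 0.39, edgeR adjusted p = 4.99e-05). Ifi44, an interferon-induced gene that restrains virus growth (chr3:151730922-151749960, minus strand), was at 5.88, 7.58 and 9.73 CPM with M and 183, 143 and 95.2 CPM with MetSA (log2 fold change 4.18 ± 0.28, edgeR adjusted p = 6.63e-06). In both genes every MetSA library was above every M library, and replicate 3 had the smallest MetSA value and the largest M value. Ly6a, which encodes the surface protein Sca-1, rose from 3.99, 4.74 and 7.03 CPM to 131, 72.9 and 47.5 CPM (3.99 ± 0.44). Ms4a4c, a membrane protein gene of the MS4A family, rose from 9.87, 14.98 and 18.8 to 282, 231 and 129.7 CPM (3.88 ± 0.37), and Iigp1, an immunity-related GTPase that attacks the vacuoles of intracellular parasites, from 5.34, 7.37 and 7.51 to 123, 104 and 62.4 CPM (3.84 ± 0.33). The 15 largest rises were completed by Ifi206, Ifit3b, Ifi213, Gbp6, Ifi205, Ifit2, Ifit1bl1, Ccl5, Ifit3 and Irf7, at log2 fold changes from 3.20 in Irf7 to 3.62 in Ifi206. Near-identical copies limit some of these: stretches of 100 bases shared with another gene made up 64.5% of Gbp6, 31.7% of Ifit3, 27.4% of Ifit3b, 15.04% of Ifi205 and 13.1% of Ifi206, so the split of reads between such copies is uncertain.

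**Figure D1:**
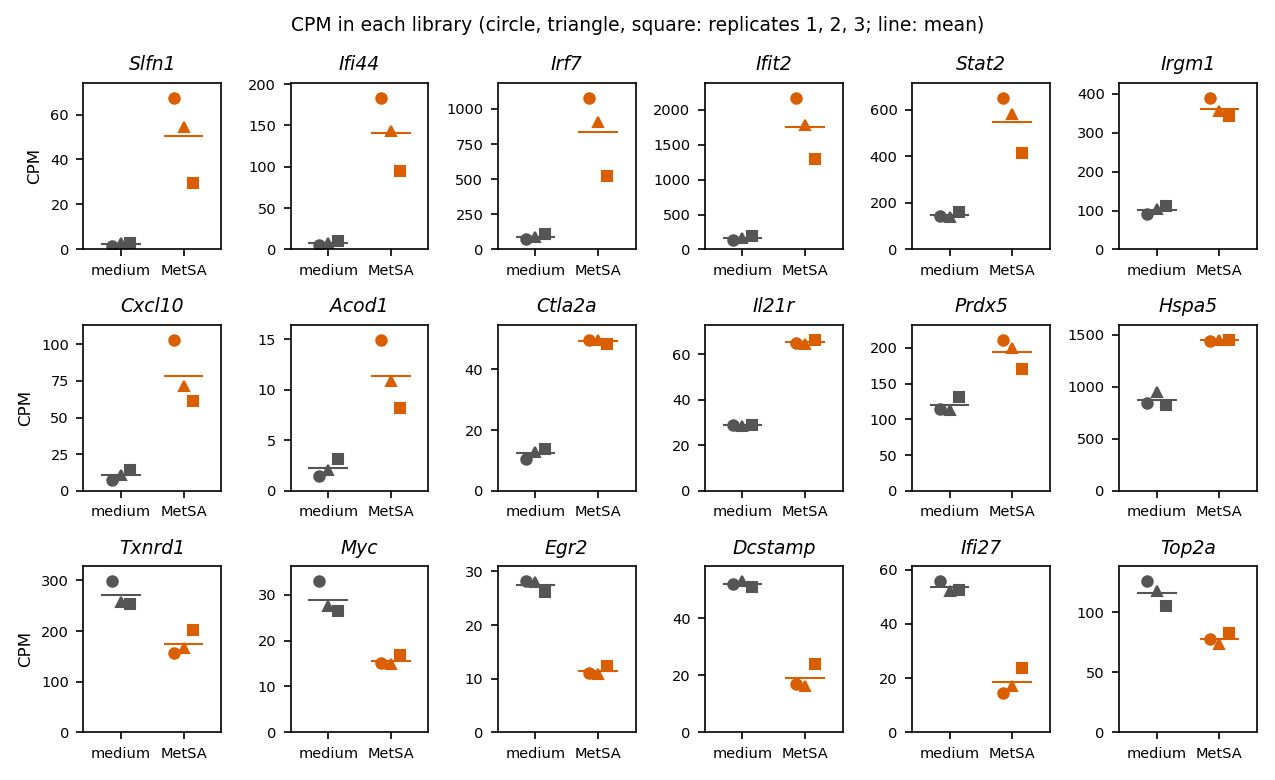
CPM of 18 genes in the 3 medium (grey) and 3 methylsuccinic acid (orange) libraries, on linear axes from 0; circle, triangle and square are replicates 1, 2 and 3 and the line is the group mean. The groups do not overlap in any panel; replicate 3 is the lowest orange point for Slfn1, Ifi44, Irf7, Ifit2 and Stat2, while Ctla2a, Il21r and Hspa5 differ little among the 3 orange points.

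The steps of the interferon pathway were next taken in order. Of 18 tested genes for sensing RNA and DNA, 16 rose and none fell (1 with upper-quartile scaling), with a median log2 fold change of 1.03. Ddx58, which encodes the RNA sensor RIG-I, rose from 109.7, 118 and 130.3 to 427, 397 and 342 CPM (1.70 ± 0.09), and Ifih1, which encodes the sensor MDA5, rose by 1.58 ± 0.09. Zbp1, a sensor of left-handed nucleic acid that can start cell death, had the largest rise of the named sensors, from 18.3, 21.4 and 29.004 to 221, 192 and 143 CPM (3.02 ± 0.21). The endosomal receptors Tlr3, Tlr7 and Tlr9 rose by 1.42 ± 0.07, 0.75 ± 0.06 and 1.32 ± 0.10. The 2 sensing genes that did not pass the test were Irf3, at -0.21, and Mavs, at 0.10, the factor and the adaptor that transmit the signal.

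The interferon genes themselves had almost no counts. Of 15 genes for type I, II and III interferons and their receptors, 4 had enough counts to be tested, all of them receptor chains. Ifnb1, the gene of interferon beta, was too low to be tested, at 0, 0.037 and 0 CPM with M and 0.0412, 0.158 and 0.195 CPM with MetSA, which is a handful of reads a library. Of the receptor chains, Ifnar2 was called higher at 162, 174 and 182 CPM with M and 195, 201 and 211 CPM with MetSA (0.23 ± 0.06, edgeR adjusted p = 0.00839), a call lost with upper-quartile scaling (0.17, edgeR adjusted p = 0.0553) and without M replicate 1 (0.18, edgeR adjusted p = 0.0604). Ifnar1, Ifngr1 and Ifngr2 did not pass the test, at log2 fold changes of -0.05, -0.19 and 0.11. Ifngr1, a chain of the interferon gamma receptor, was called lower without MetSA replicate 3 (-0.28, edgeR adjusted p = 0.00322), with upper-quartile scaling (-0.25, edgeR adjusted p = 0.0208) and with the replicate number as a block (-0.19, edgeR adjusted p = 0.0141).

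Signal transducers rose with the sensors. Stat2, a factor of the type I response, was at 141, 139.6 and 162 CPM in the M libraries and 649.8, 582 and 416 CPM in the MetSA libraries (log2 fold change 1.89 ± 0.14, edgeR adjusted p = 1.62e-06). Jak2, a receptor-bound kinase, rose by 0.68 ± 0.08, and in all 10 of 15 JAK-STAT genes were called higher and 1 lower. The lower call, Stat5a (-0.24), was lost in a fit of the 6 libraries alone and without MetSA replicate 1, M replicate 2 or M replicate 3. Usp18, which removes ISG15 from proteins and holds back the receptor, rose by 2.18 ± 0.20. Of 8 tested interferon regulatory factors 6 rose and none fell (1 with upper-quartile scaling). Irf7, the factor that amplifies the interferon response (chr7:141262706-141266481, minus strand), had the largest change of these, from 77.6, 87.5 and 108 to 1077, 909 and 519 CPM (3.20 ± 0.29, edgeR adjusted p = 5.40e-05). Irf1 rose by 1.04 ± 0.08, Irf9, the DNA-binding partner of STAT2, by 0.43 ± 0.06 and Irf8, a factor of macrophage development, by 0.40 ± 0.06.

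Effector families followed almost without exception. The 6 tested Ifit genes, which bind foreign RNA, all rose, with a median log2 fold change of 3.26, against 12.6% of all genes called higher. Ifit2 (chr19:34550694-34576419, plus strand) was at 139, 165 and 197 CPM in the M libraries and 2168, 1789 and 1299 CPM in the MetSA libraries (3.39 ± 0.23, edgeR adjusted p = 7.56e-06). Ifit3 (chr19:34583531-34588731, plus strand) rose from 56.9, 72.8 and 90.97 to 849, 691 and 564 CPM, and Ifit1, which recognises RNA caps, from 37.6, 45.6 and 52.7 to 290.3, 243 and 225 CPM (2.48 ± 0.18). Without MetSA replicate 3, 5 of the 6 were called and the median was 3.45. All 7 tested Schlafen genes and all 10 tested genes of the p200 family, which bind DNA, rose, with medians of 1.63 and 2.22. Of 8 tested Oas genes, whose products make a signal of short oligoadenylates, 7 rose (median 1.43). Oas3 rose from 185, 189 and 220.2 to 1071, 930.3 and 750.0 CPM (2.21 ± 0.12).

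GTPases that attack intracellular pathogens formed another block. All 10 tested guanylate-binding proteins rose (median 2.43) and all 9 tested immunity-related GTPases rose (median 2.29). Gbp3 rose from 12.6, 12.2 and 15.8 to 82.1, 74.3 and 61.6 CPM (2.42 ± 0.14) and Gbp5 from 7.25, 7.59 and 9.29 to 48.1, 43.6 and 32.8 CPM (2.37 ± 0.20). Irgm1, a regulator of the other GTPases of its family (chr11:48861968-48871683, minus strand), was at 89.99, 105 and 112 CPM in the M libraries and 389, 356 and 342 CPM in the MetSA libraries (1.82 ± 0.08). Its adjusted p by edgeR, 1.61e-11, was among the smallest of the comparison. Irgm2 rose by 1.74 ± 0.08. For the guanylate-binding proteins the 3 MetSA libraries lay at medians of 2.59, 2.45 and 2.07 above the M mean on the log2 scale, and for the immunity-related GTPases at 2.58, 2.56 and 1.87, so that replicate 3 was the lowest library in both families and still far above M replicate 3, which lay at 0.15 and 0.16.

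The ISG15 system and the interferon-inducible PARPs rose as whole lists, 7 of 7 tested (median 1.87) and 8 of 8 (median 1.28). Isg15, a ubiquitin-like protein that is attached to viral and host proteins, rose from 15.4, 20.04 and 21.9 to 181, 139.7 and 81.6 CPM (2.81 ± 0.30, edgeR adjusted p = 1.72e-04). Of 32 other tested antiviral effectors, 28 rose and 1 fell (median 1.54). Trim30a, a regulator of inflammatory signalling, rose from 219.5, 257 and 259 to 718, 661 and 655 CPM (1.47 ± 0.07), and Bst2, which tethers budding virus to the cell, from 138, 154 and 175 to 818, 632 and 358 CPM (1.95 ± 0.26). The exception was Ifi27 (chr12:103434211-103440239, plus strand), also named for its induction by interferon, which had the largest fall of the genes at 10 CPM or more without overlap, at 55.7, 52.2 and 52.6 CPM in the M libraries and 14.5, 16.9 and 23.9 CPM in the MetSA libraries (-1.54 ± 0.26, edgeR adjusted p = 0.00255). Its MetSA values were lowest where those of Ifi44 were highest, in replicate 1, and no M and MetSA libraries overlapped.

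Antigen presentation by MHC class I rose in full: 21 of 21 tested genes of the class I heavy chains, the peptide transporter and the immunoproteasome were called higher, with a median log2 fold change of 1.07. Tap1, a subunit of the transporter that brings peptides to class I, rose from 100.4, 99.1 and 106 to 305, 271 and 223 CPM (1.39 ± 0.09). Tapbp, which holds class I at the transporter, rose by 1.09 ± 0.08, with 14.8% of its sequence shared, and H2-M3, a class I molecule for formylated peptides, by 0.89 ± 0.08. Of the MHC class II genes, 2 of 10 tested were called higher, H2-DMa (0.58 ± 0.14) and H2-DMb1 (0.56 ± 0.10), both subunits of the molecule that loads peptides. The other 8 did not pass the test, where 12.6% of all genes were called higher. Among them were Ciita, the master regulator of class II, at -0.10, and Cd74, the invariant chain, at 0.21. The class II list had a median of 0.24, which was 0.05 without MetSA replicate 3, since the MetSA libraries lay at -0.09, 0.25 and 0.57 against the M mean. With no filter on low counts 4 class II genes were called higher.

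**Figure D2:**
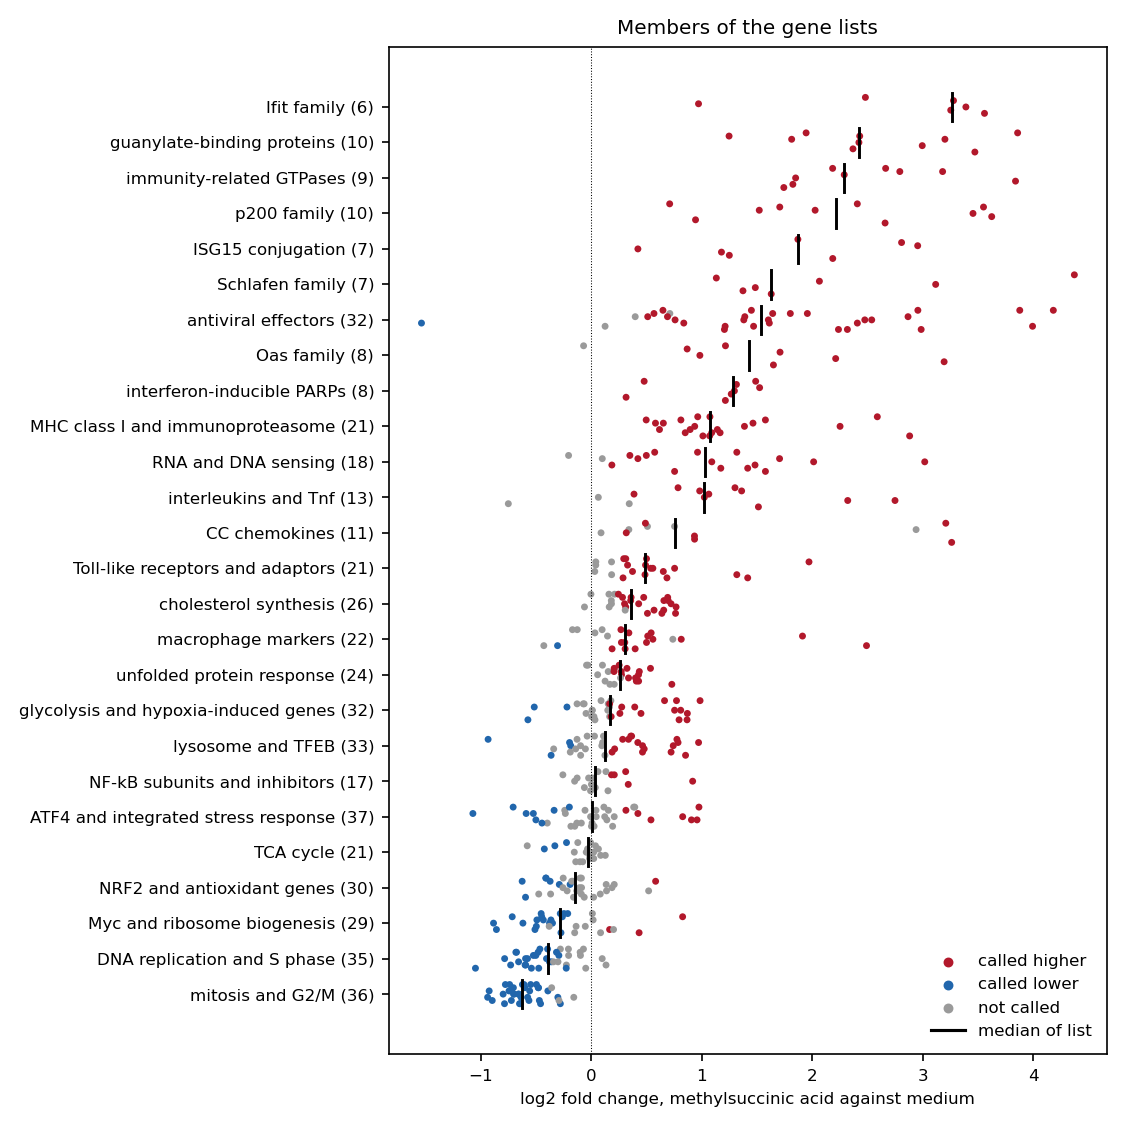
Log2 fold change of methylsuccinic acid over medium for the tested members of 26 gene lists, with list sizes in parentheses, ordered by median (black bar); red points were called higher, blue points lower and grey points were not called at an edgeR adjusted p below 0.05. The 6 Ifit genes have a median of 3.26 at the top and the 36 mitosis genes a median of -0.63 at the bottom.

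The promoters of these genes were then read for the letters to which interferon-activated factors bind. The ISRE core was searched as GAAANNGAAA and the STAT site as TTCNNNGAA, on both strands, in 250 bases before to 50 bases after each start in RefSeq's promoters of build GRCm38.p6, and the 2 motifs can overlap. The windows below show the core in genes with large or precise rises, chosen after their values were seen. The windows were taken from the 250 bases before the start only. They are written 5′ to 3′ on the gene's strand with the core in capitals, as GAAANNGAAA or, where it lies on the opposite strand, as TTTCNNTTTC.
Isg15 (chr4:156200850-156200909, minus strand): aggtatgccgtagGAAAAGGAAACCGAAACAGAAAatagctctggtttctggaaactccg
Irgm1 (chr11:48871421-48871480, minus strand): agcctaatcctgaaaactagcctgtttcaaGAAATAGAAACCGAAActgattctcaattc
Cxcl10 (chr5:92349068-92349127, minus strand): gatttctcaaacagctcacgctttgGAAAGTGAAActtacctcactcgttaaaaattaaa
Ifit3 (chr19:34583372-34583441, plus strand): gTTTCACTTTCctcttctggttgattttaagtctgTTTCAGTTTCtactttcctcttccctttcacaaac
Ifit3b (chr19:34607768-34607837, plus strand): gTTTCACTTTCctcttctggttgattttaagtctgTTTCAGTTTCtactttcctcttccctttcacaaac
Ifi206 (chr1:173491324-173491383, minus strand): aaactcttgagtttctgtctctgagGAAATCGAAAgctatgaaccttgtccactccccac
Ifi213 (chr1:173599311-173599370, minus strand): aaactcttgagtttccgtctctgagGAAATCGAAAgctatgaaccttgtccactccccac
Ifi205 (chr1:174031855-174031914, minus strand): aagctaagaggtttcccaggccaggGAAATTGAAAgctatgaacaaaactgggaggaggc
In Isg15, 3 overlapping cores followed each other in one run, and in Irgm1 there were 2. Ifit3 and Ifit3b, neighbours on chromosome 19, held the same 70 letters with 2 cores each, and those of Ifi206 and Ifi213 on chromosome 1 held the same core, GAAATCGAAA. No core was found in the 250 bases before the start of Slfn1, Ifi44, Ms4a4c, Ifit2 and Irf7. This says only that these letters do not stand there, and the 50 bases after the start were not read for single genes. Of the 15 largest rises, no promoter window was read for Ly6a, Iigp1, Gbp6 and Ccl5.

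Across genes the share of promoters with an ISRE core followed the size of the rise. A core stood in the promoters of 31.0% of 100 genes called higher with a log2 fold change of 2 or more and of 23.5% of 200 genes between 1 and 2. It stood in 6.62% of 1103 genes called higher by less, in 2.99% of 8294 genes not called and in 2.54% of 944 genes called lower. A core stood in 3.98% of the 10641 tested genes with a promoter, and of all 32851 promoters 3.44%. The STAT site was found in 15%, 18%, 7.98%, 8.02% and 8.05% of the same classes, against 8.27% of the tested genes and 8.30% of all promoters. A gene with several promoters counted if any held the motif, and a match describes the sequence and not a bound factor.

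**Figure D3:**
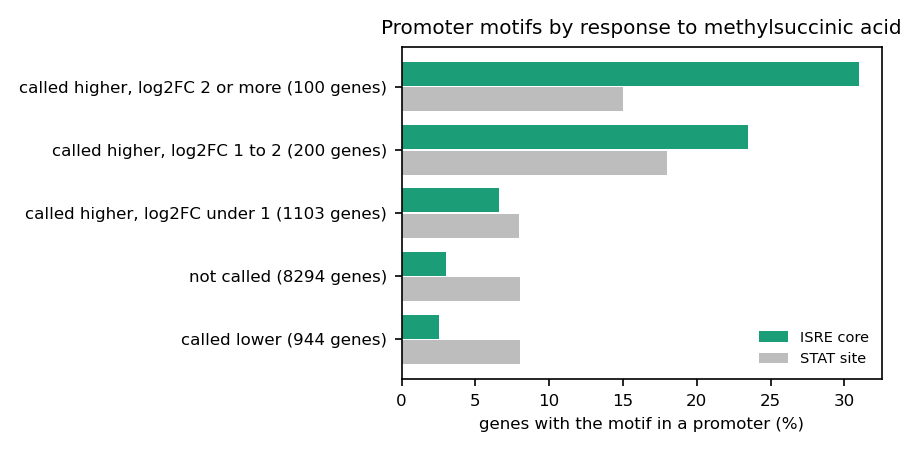
Share of genes (%) with an ISRE core (green) or a STAT site (grey) in a promoter, for 5 classes of response to methylsuccinic acid; class sizes are in parentheses. The ISRE share falls from 31.0% in the genes that rose most to 2.54% in those called lower.

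Chemokines and cytokines rose more selectively. Of 11 tested CC chemokines 6 rose, and of 8 tested CXC chemokines 3 rose, with no fall in either list. Without MetSA replicate 3 the CC chemokines called higher were 8. Ccl5, a chemoattractant for T cells, rose from 1.29, 1.19 and 2.14 to 22.8, 15.2 and 6.36 CPM (3.26 ± 0.50), where MetSA replicate 1 was the highest and replicate 3 the lowest of its group. Cxcl10, an interferon-induced ligand of CXCR3 (chr5:92346638-92348889, minus strand), rose from 7.69, 10.6 and 14.4 to 103, 71.3 and 61.04 CPM (2.85 ± 0.33, edgeR adjusted p = 2.98e-04). Ccl3 and Ccl4, which attract monocytes, both rose by 0.93 on the log2 scale. Neutrophil chemokines showed no call: Cxcl1 was at 0.16 and Cxcl2 at -0.05.

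Of 13 tested interleukins and members of the Tnf family, 10 rose and none fell (median 1.02). Tnfsf10, the death ligand TRAIL, rose from 4.93, 4.72 and 6.78 to 46.5, 34.5 and 29.5 CPM (2.75 ± 0.20). Il1b, the gene of the inflammatory interleukin 1 beta, rose from 3.95, 6.87 and 6.27 to 15.5, 18.97 and 14.4 CPM (1.51 ± 0.20), and its natural antagonist Il1rn from 27.1, 27.8 and 29.3 to 50.04, 47.3 and 47.8 CPM (0.78 ± 0.09). Il10, which restrains macrophages, was at 2.38, 3.59 and 2.83 CPM in the M libraries and 8.32, 7.27 and 7.04 CPM in the MetSA libraries (1.36 ± 0.16, edgeR adjusted p = 3.19e-06). Il15, which supports NK cells, rose by 1.06 ± 0.08. Tnf did not pass the test, at 21.01, 20.04 and 20.5 CPM with M and 22.3, 19.3 and 22.7 CPM with MetSA (0.06 ± 0.09, 95% interval -0.12 to 0.25, edgeR adjusted p = 0.67). Il6 was too low to be tested, with at most 0.158 CPM in any of the 6 libraries.

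Receptors and signalling proteins that prime macrophages moved by smaller steps. Of 21 Toll-like receptor and adaptor genes 16 rose (median 0.49), among them Myd88, the common adaptor, at 70.3, 71.5 and 71.1 CPM with M and 112, 114 and 116 CPM with MetSA (0.68 ± 0.06). Il21r had nearly the same value in each library of a group, 28.9, 28.3 and 29.1 CPM with M and 64.9, 64.7 and 66.4 CPM with MetSA (1.18 ± 0.06, edgeR adjusted p = 1.15e-10), and unlike in most of the interferon effectors replicate 3 was not the lowest. Il13ra1 and Il4ra, which form the receptor of interleukin 13, rose by 1.06 ± 0.09 and 0.65 ± 0.06. Among the macrophage markers, Fcgr1, the high-affinity receptor for IgG, rose from 272, 318 and 332 to 1385, 1171 and 909 CPM (1.91 ± 0.13) and Fcgr4 from 26.4, 41.2 and 45.8 to 242, 225 and 171 CPM (2.49 ± 0.20). The checkpoint ligand Cd274 (PD-L1) rose by 1.79 ± 0.12 and the costimulatory ligand Cd86 by 0.81 ± 0.08. Of 18 inflammasome and cell death genes 12 rose and 1 fell. Mlkl, which perforates membranes in necroptosis, rose by 1.39 ± 0.09, Casp4 by 0.86 ± 0.11, Casp1 by 0.57 ± 0.08, and Nlrp1b fell by 0.42 on the log2 scale.

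NF-kB genes moved less than the interferon genes, with a median of 0.04 over 17 subunits and inhibitors. Of these, 5 were called higher and none lower, where 12.6% of all genes were called higher. Nfkbiz, an inducible nuclear cofactor, was the largest of them, at 50.2, 57.6 and 59.7 CPM with M and 106, 113 and 97.2 CPM with MetSA (0.92 ± 0.08, edgeR adjusted p = 1.20e-07). The feedback inhibitors Nfkbia and Tnfaip3 did not pass the test, at 0.15 and 0.06, nor did the subunit Rela, at -0.06. The count of 5 was 2 with upper-quartile scaling, in a fit of the 6 libraries alone and without M replicate 1, and 3 without MetSA replicate 1, 2 or 3 or M replicate 2.

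Effector enzymes of activated macrophages were called higher in 7 of 15 tested genes. Acod1, which makes itaconate, rose from 1.49, 2.09 and 3.19 to 14.99, 10.9 and 8.22 CPM (2.32 ± 0.26, edgeR adjusted p = 5.02e-05), with no overlap and with the smallest MetSA value in replicate 3. Cybb, the catalytic subunit of the phagocyte oxidase, rose from 1194, 1471 and 1359.9 to 2197, 2273 and 2173 CPM (0.72 ± 0.07), and Ncf1, which organises that oxidase, by 0.53 ± 0.06. Gch1, which makes the cofactor of nitric oxide synthase, rose by 0.74 ± 0.09. Nos2, the inducible nitric oxide synthase, was called higher (edgeR adjusted p = 0.0132) at very low levels, 0.0201, 0 and 0 CPM with M and 0.329, 0.0395 and 0.156 CPM with MetSA, and no fold is given for it because 1 read was counted over the 3 M libraries. That call was lost without MetSA replicate 1 (edgeR adjusted p = 0.0801) and without M replicate 2 (edgeR adjusted p = 0.058).

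The series is titled for peroxiredoxin 5, a mitochondrial, cytosolic and peroxisomal peroxidase. Its gene Prdx5 (chr19:6906697-6910106, minus strand) rose: it was at 115, 113 and 131 CPM in the M libraries and 211, 199.6 and 170.1 CPM in the MetSA libraries (log2 fold change 0.70 ± 0.08, 95% interval 0.53 to 0.86, edgeR adjusted p = 1.71e-06), and 12.3% of its sequence is shared with another gene. Prdx5 was the one peroxiredoxin to be called. Prdx1, Prdx2, Prdx3, Prdx4 and Prdx6 did not pass the test, at log2 fold changes of -0.18, 0.09, -0.07, -0.01 and -0.05. Txnip, which binds and inhibits thioredoxin, rose by 0.43 ± 0.07, and 12.1% of its sequence is shared. The list of peroxiredoxins and thioredoxins went both ways, with 3 of 13 tested genes called higher and 2 lower (median -0.07). Over all genes the shares were 12.6% and 8.53%. Without MetSA replicate 3 the list had 3 higher and 3 lower, and the 2 lower calls were 1 without M replicate 2 or M replicate 3.

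Genes of NRF2, the factor that answers electrophiles and oxidants, and of antioxidant defence did not rise as a list. Of 30 tested genes 1 was called higher and 7 were called lower, against 12.6% and 8.53% of all genes, with a median of -0.15. Nfe2l2, the gene of NRF2, was at 291, 294 and 311 CPM with M and 305, 324 and 356 CPM with MetSA and did not pass the test (0.14 ± 0.06, 95% interval 0.01 to 0.26, edgeR adjusted p = 0.115). Keap1, its inhibitor, was the member called higher (0.58 ± 0.08). Txnrd1, thioredoxin reductase, fell from 299, 258 and 254 to 156, 167 and 202 CPM (-0.63 ± 0.08, edgeR adjusted p = 1.87e-05), and Gclc, the catalytic subunit of the enzyme that limits glutathione synthesis, from 44.6, 40.8 and 42.95 to 26.8, 27.2 and 30.9 CPM (-0.60 ± 0.07). Hmox1, which degrades haem, fell from 385, 351 and 336 to 247, 245 and 314 CPM (-0.41 ± 0.09), where MetSA replicate 3 lay nearest to M. Nqo1 was at 2.34, 1.72 and 2.04 CPM with M and 1.32, 1.58 and 1.48 CPM with MetSA and did not pass the test (-0.48 ± 0.24). This list moved with 1 library: in the MetSA libraries its median stood at -0.25, -0.21 and -0.02 against the M mean, and without MetSA replicate 3 the calls were 3 higher and 14 lower. With upper-quartile scaling 12 were called lower.

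Chaperones of the endoplasmic reticulum rose together. Of 24 genes of the unfolded protein response 14 rose and none fell, with a median of 0.26, and the 3 MetSA libraries were alike, at medians of 0.25, 0.29 and 0.26. Hspa5, the chaperone BiP, was at 843, 949 and 827 CPM with M and 1443, 1452 and 1447 CPM with MetSA (0.73 ± 0.06, edgeR adjusted p = 6.92e-08). Calr rose by 0.54 ± 0.06, Hsp90b1 by 0.43 ± 0.06 and Dnajb11 by 0.40 ± 0.06. Atf6, a sensor of this response, did not pass the test, at 0.10. Genes of ATF4 and the integrated stress response went both ways, 7 higher and 8 lower of 37, against 12.6% and 8.53% of all genes. Ddit3, the factor CHOP, rose from 9.93, 11.002 and 11.8 to 21.96, 21.8 and 14.3 CPM (0.83 ± 0.15), and Psat1, of serine synthesis, fell from 26.1, 28.7 and 25.7 to 14.7, 14.9 and 19.7 CPM (-0.71 ± 0.12), while Atf3, at 0.12, and Trib3, at -0.15, did not pass the test. The 8 lower calls were 5 without MetSA replicate 1 or M replicate 1 and 4 without MetSA replicate 2 or M replicate 2. Without MetSA replicate 3 the list had 9 higher and 6 lower.

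**Figure D4:**
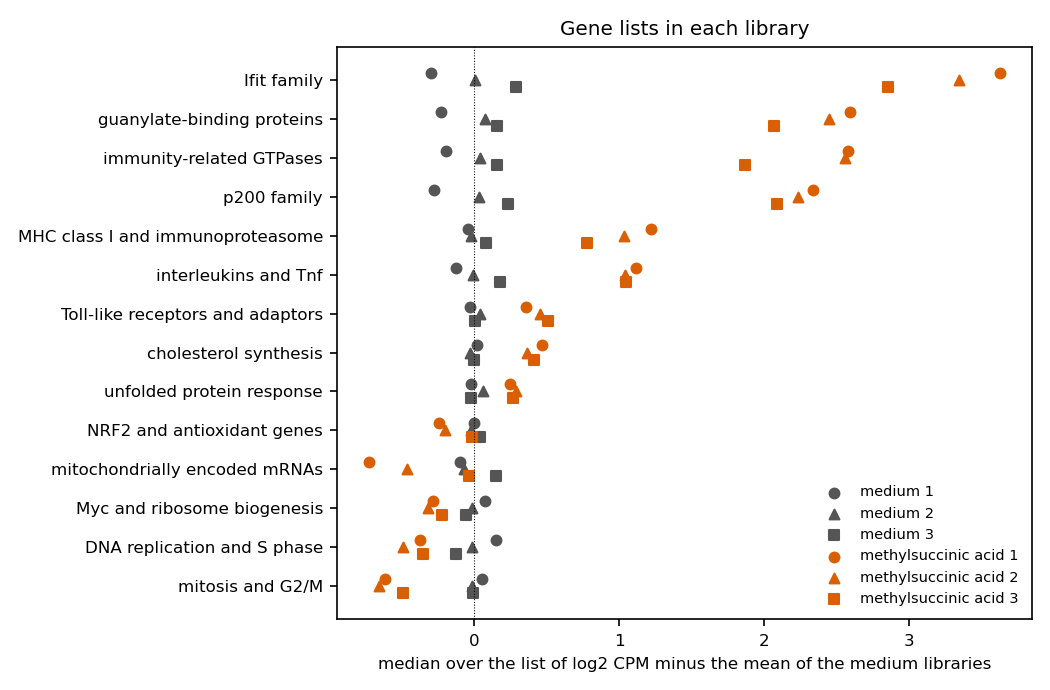
Median over each of 14 gene lists of a member's log2 CPM minus its mean in the 3 medium libraries, for every medium (grey) and methylsuccinic acid (orange) library; circle, triangle and square are replicates 1, 2 and 3. The orange square, replicate 3, lies left of the other orange points for the 4 interferon families at the top and at -0.02 for the NRF2 list, while the 3 orange points lie close together for the unfolded protein response at 0.25, 0.29 and 0.26.

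Genes of succinate dehydrogenase, which oxidises succinate to fumarate, showed no call. None of its 8 subunits and assembly factors passed the edgeR test in either direction, where 21.2% of all genes were called. At that share few calls would stand in a list of this size, so their absence says little. The median was 0.11, 1 was at an unadjusted p below 0.05, and DESeq2 called none. Sdha was at 232, 232 and 228 CPM with M and 265, 236 and 245 CPM with MetSA (0.11 ± 0.06, 95% interval -0.01 to 0.23) and Sdhb at 65.1, 71.97 and 74.7 CPM with M and 82.2, 72.5 and 76.4 CPM with MetSA (0.13 ± 0.07, 95% interval -0.01 to 0.26). Of 21 citric acid cycle genes 3 were called lower and none higher, against 8.53% and 12.6% of all genes. Idh3a, of the cycle's isocitrate dehydrogenase, fell by 0.43 on the log2 scale and Idh2 by 0.33, and with upper-quartile scaling 6 were called lower. Of 13 tested genes that handle itaconate and other dicarboxylates, 2 were called higher and 1 lower (2 with upper-quartile scaling). Over all genes 12.6% were called higher and 8.53% lower, and the counts of this list were near those shares. Besides Acod1 the called members were Slc25a10, the mitochondrial dicarboxylate carrier (0.26 ± 0.07), and Slc16a1, a monocarboxylate transporter (-0.57 ± 0.11). Sucnr1, the succinate receptor, had no count in any of the 6 libraries.

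Mitochondrially encoded mRNAs differed between the MetSA replicates. The median of 12 tested genes stood at -0.73 and -0.46 against the M mean in replicates 1 and 2 and at -0.04 in replicate 3, beside the shares of counts given above. Of the 12, 3 were called lower, against 8.53% of all genes. Among these was mt-Nd2, a subunit of complex I, at 548, 569 and 647 CPM with M and 259, 289 and 421 CPM with MetSA (-0.86 ± 0.17, edgeR adjusted p = 0.00571). Without MetSA replicate 3 or with no filter on low counts 6 were called, and 1 when any other single library of the 2 groups was left out or when only the 6 libraries were fitted.

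Glycolysis and hypoxia-induced genes rose in part, 14 higher and 3 lower of 32 tested, against 12.6% and 8.53% of all genes. The lower calls were near their share, and without MetSA replicate 3 the counts were 11 higher and 3 lower. Hif1a, the oxygen-regulated factor, was at 139, 156 and 137 CPM in the M libraries and 243, 261 and 286 CPM in the MetSA libraries (0.87 ± 0.07, edgeR adjusted p = 1.83e-08). Hk2, which traps glucose as its phosphate, rose from 44.5, 47.1 and 45.4 to 90.5, 99.2 and 81.3 CPM (0.98 ± 0.07), and Pfkfb3, which makes the activator of phosphofructokinase, by 0.87 ± 0.06. Slc2a1, the glucose transporter GLUT1, did not pass the test at -0.06, and Ndrg1, a hypoxia-induced gene, fell by 0.52 on the log2 scale.

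Of 26 tested genes of cholesterol synthesis and uptake, 18 rose and none fell (median 0.36). Hmgcs1, an enzyme early in the pathway, rose from 50.5, 58.1 and 54.8 to 91.3, 82.6 and 90.9 CPM (0.70 ± 0.08). Cyp51, a later enzyme, rose by 0.69 ± 0.08, and Insig1, the sterol-controlled brake on SREBP processing, by 0.57 ± 0.06. The upper-quartile scaling left 15 called and the fit without MetSA replicate 3 left 16. Lysosomal genes were higher in 16 and lower in 4 of 33, against 12.6% and 8.53% of all genes. The 4 lower calls were 2 without MetSA replicate 2, without M replicate 1 and in the fit of the 6 libraries. Npc2, which carries cholesterol out of the lysosome, rose from 944, 1075 and 1079 to 2243, 2061 and 1767 CPM (0.97 ± 0.08), Ctss, a protease of antigen processing, rose by 0.85 ± 0.07, and Mitf, a factor related to TFEB, fell by 0.36 on the log2 scale. Of 17 tested iron handling genes 3 were called higher and 4 lower (median -0.03), against 12.6% and 8.53% of all genes. The 4 lower calls were 7 with upper-quartile scaling and 2 without MetSA replicate 2 or M replicate 1. The 3 higher calls were 5 with DESeq2 or no filter. Cp, the iron oxidase ceruloplasmin, rose from 7.13, 10.8 and 13.01 to 36.5, 40.02 and 32.4 CPM (1.82 ± 0.20), and Slc40a1, the iron exporter ferroportin, fell by 0.36 on the log2 scale.

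Genes of cell division fell. Of 36 mitosis and G2/M genes 33 fell and none rose, with a median of -0.63, and of 35 genes of DNA replication and S phase 23 fell and none rose, with a median of -0.40, against 8.53% of all genes called lower. Top2a, the topoisomerase of dividing cells, was at 126, 118 and 105 CPM in the M libraries and 77.9, 73.2 and 82.5 CPM in the MetSA libraries (-0.58 ± 0.08, edgeR adjusted p = 1.31e-05). Foxm1, the factor that drives mitotic genes, fell from 17.9, 14.5 and 15.1 to 7.76, 7.53 and 9.46 CPM (-0.94 ± 0.12), Ccna2 (cyclin A2) by 0.79 on the log2 scale and Anln, of the contractile ring, by 0.78. Mcm5, a subunit of the replicative helicase, fell from 96.4, 78.9 and 76.5 to 59.4, 52.4 and 54.5 CPM (-0.60 ± 0.10), and Uhrf1, which maintains DNA methylation, from 77.5, 56.7 and 55.4 to 38.9, 34.9 and 40.5 CPM (-0.73 ± 0.11). For the mitosis genes MetSA replicate 3 was again nearest to M, at a median of -0.50 against -0.62 and -0.66, and without it the same number of genes, 33, was called. The count was 22 without MetSA replicate 2. In bulk RNA, fewer cells in division and less of these mRNAs per cell cannot be told apart. Cdkn1a, the cell cycle inhibitor p21, rose from 306, 299 and 321 to 515, 464 and 429.8 CPM (0.60 ± 0.07), while Mdm2, another p53 target, was at -0.02 and did not pass the test. Of 25 p53 targets 9 were called higher and 2 lower, with a median of 0.13, against 12.6% and 8.53% of all genes.

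Myc, the growth factor-induced driver of ribosome production, fell from 32.9, 27.4 and 26.3 to 15.2, 14.8 and 16.9 CPM (-0.88 ± 0.10, edgeR adjusted p = 1.28e-06). Of the 29 genes of Myc and ribosome biogenesis 18 fell and 3 rose. Srm, of polyamine synthesis, fell by 0.86 on the log2 scale, and the 2 named members that rose were Mxd1, an antagonist of Myc (0.83 ± 0.09), and Max, the partner of both (0.43 ± 0.06). Egr2, a growth factor-induced transcription factor (chr10:67535475-67542188, plus strand), was at 28.2, 28.1 and 26.1 CPM in the M libraries and 10.99, 10.9 and 12.3 CPM in the MetSA libraries (-1.27 ± 0.11, edgeR adjusted p = 4.31e-08). Of 25 tested MAP kinase feedback and immediate early genes, 5 were called lower and 3 higher, against 8.53% and 12.6% of all genes. Dusp4, a phosphatase of MAP kinases, fell by 0.86 and Spred2 by 0.51 on the log2 scale, Jun and Spry2 rose by 0.31 and 0.35, and Egr1, at -0.16, and Fos, at 0.06, did not pass the test. The 3 higher calls were 1 without MetSA replicate 1, M replicate 1 or M replicate 2.

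The other large falls were in genes of several kinds. Of 10 tested osteoclast and cell fusion genes 4 fell and 1 rose, and of 15 matrix metalloproteinases and inhibitors 3 fell and 6 rose. Over all genes 8.53% fell and 12.6% rose. Dcstamp, the receptor-like protein needed for macrophage and osteoclast fusion, fell from 52.04, 52.95 and 50.98 to 16.8, 16.4 and 23.9 CPM (-1.45 ± 0.17). Atp6v0d2, a proton pump subunit also linked to fusion, fell from 99.5, 93.8 and 84.7 to 46.05, 42.1 and 57.3 CPM (-0.93 ± 0.11). Mmp9 and Mmp12, a gelatinase and the macrophage elastase, fell by 1.14 and 1.09, whereas the collagenase Mmp13 rose from 10.8, 12.8 and 15.02 to 43.1, 41.3 and 31.7 CPM (1.59 ± 0.16) and the membrane-bound Mmp14 from 6.44, 7.83 and 6.40 to 20.8, 19.2 and 20.9 CPM (1.56 ± 0.10). Itgax, the integrin CD11c, fell from 44.8, 40.7 and 39.03 to 17.2, 18.7 and 25.2 CPM (-1.03 ± 0.13). Il1rl1, the receptor of interleukin 33, fell by 1.07, and Lama3, Smpd3, Tox2, Matk, Mamld1, Vwf, Dcbld2 and Nptx1 fell by 0.97 (Dcbld2 and Nptx1) to 1.16 (Lama3) on the log2 scale. In Nptx1, 168, 161 and 114 CPM with M and 71.2, 77.8 and 77.1 CPM with MetSA, and Smpd3, 17.1, 18.4 and 10.5 CPM with M and 5.56, 8.08 and 7.08 CPM with MetSA, the M libraries were themselves spread, with M replicate 3 nearest to MetSA.

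Some genes outside the interferon lists moved with little spread between replicates. Ctla2a, which encodes a cysteine protease inhibitor, was at 10.6, 12.9 and 13.8 CPM in the M libraries and 49.8, 49.8 and 48.3 CPM in the MetSA libraries (1.99 ± 0.08, edgeR adjusted p = 1.61e-11). Stretches shared with another gene made up 11.02% of it. Ms4a6d, another MS4A gene, was at 86.7, 91.4 and 101 CPM with M and 363, 310.2 and 311 CPM with MetSA (1.82 ± 0.08), and Dck, the kinase that salvages deoxycytidine, at 117, 124 and 118 CPM with M and 362, 322 and 306 CPM with MetSA (1.46 ± 0.07). Among the falls, Sox4, a transcription factor, was at 58.02, 57.1 and 55.7 CPM with M and 28.7, 29.2 and 30.6 CPM with MetSA (-0.95 ± 0.06), with 53.6% of its sequence shared. Osbpl3 fell by 0.79, Chst11 by 0.86 and Myo10, a myosin of filopodia, by 0.89 on the log2 scale. In Ctla2a the MetSA libraries differed by less than 2 CPM, in contrast to Slfn1, where replicate 1 was more than 2 times replicate 3.

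Markers of other cells that the cultures could hold were counted as well, where 12.6% of all genes tested were called higher and 8.53% lower. The higher calls among dendritic cell and neutrophil markers were near the first of these shares. Of 12 dendritic cell markers 2 were called higher and 1 lower, and their summed level was 187 to 220 CPM with M and 392 to 842 CPM with MetSA. That sum was mostly Bst2, which the antiviral list also holds. Xcr1, the chemokine receptor of cross-presenting dendritic cells, was at 0.161, 0.241 and 0.267 CPM with M and 2.33, 1.74 and 1.83 CPM with MetSA (3.12 ± 0.29), while Flt3, at -0.00, and Zbtb46, at -0.69, other dendritic cell genes, did not pass the test. Of 13 tested neutrophil markers 2 were called higher, Csf3r (0.72 ± 0.07) and Mmp8 (0.67 ± 0.11), and the granule genes Mpo (-0.16) and Elane (-0.36) did not pass it. The neutrophil sum was 170 to 225 CPM with M and 258 to 275 CPM with MetSA. Of 6 tested lymphocyte markers 1 was called higher and 5 were not called. The called gene, Cd4, was at 13.2, 11.98 and 14.5 CPM with M and 27.1, 23.4 and 20.9 CPM with MetSA (0.85 ± 0.12). The T cell receptor genes Cd3d, Cd3e and Cd3g were too low to be tested. No stromal or erythroid marker was called by edgeR, with 0 and 2 at an unadjusted p below 0.05. Of these Pf4, a platelet gene, was called higher by DESeq2, with no filter, with the stricter filter and in the fit of the 6 libraries, and with no filter the stromal genes Col1a1, Fn1 and Sparc were called lower. The summed level of 10 mast cell and basophil markers was 1.23 to 1.72 CPM with M and 2.73 to 4.03 CPM with MetSA, and of the 4 tested Hdc, which makes histamine, was called higher (1.67 ± 0.27), or 2 without MetSA replicate 3. The part of other cells in the results above was not tested.

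Structurally related acids at the same dose and time allowed direct tests of difference, in 2 pairs. Itaconic acid differed from methylsuccinic acid at 864 genes, 6.12% of those tested, with 560 higher in itaconic acid (3.97%) and 304 lower (2.15%). Malonic acid differed from it at 3720 genes, or 26.4%, with 1640 higher in malonic acid (11.6%) and 2080 lower (14.7%). P-values are adjusted over all genes within each pair. Leaving out MetSA replicate 3 took the itaconic acid counts to 351 higher and 154 lower. Without itaconic acid replicates 1, 2 and 3 in turn the higher counts were 329, 353 and 320, and the lower counts were 97 without replicate 1 and 100 without replicate 3. Without MetSA replicate 2 the lower count was 193.

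Some interferon-induced genes were higher still with itaconic acid, the compound with the double bond. Called higher than with MetSA were 12 of 18 sensing genes, 7 of 9 immunity-related GTPases, 7 of 8 PARPs, 12 of 32 antiviral effectors (with 1 lower) and 8 of 21 class I genes. Mean Irgm1 was 362 ± 24.2 CPM with MetSA, 538 ± 35.5 CPM with itaconic acid and 85.6 ± 4.40 CPM with malonic acid (SD, n = 3), and itaconic acid minus MetSA was 0.57 (95% interval 0.41 to 0.73, edgeR adjusted p = 3.07e-04) on the log2 scale. For Slfn1 that difference was 1.27 (95% interval 0.57 to 1.96, edgeR adjusted p = 0.0483) and for Stat2 0.61 (95% interval 0.32 to 0.91, edgeR adjusted p = 0.0222). Acod1 was at 11.4 ± 3.41 CPM with MetSA, 25.99 ± 0.496 CPM with itaconic acid and 5.73 ± 0.799 CPM with malonic acid, a difference of 1.20 (95% interval 0.69 to 1.70, edgeR adjusted p = 0.0115). Irf7 was not called between the 2 compounds, at 0.82 (95% interval 0.22 to 1.42, edgeR adjusted p = 0.116). These genes lay lower in MetSA replicate 3 than in the other MetSA libraries. Without that library the call was lost for Slfn1 at a difference of 0.99 (edgeR adjusted p = 0.0578), while Irgm1, Stat2 and Acod1 were still called, at 0.53, 0.45 and 1.01. In the same fit 10 sensing genes, 5 immunity-related GTPases, 7 PARPs, 7 antiviral effectors and 6 class I genes were called higher with itaconic acid. The Ifit family went from 3 of 6 called higher to none by edgeR, with 5 at an unadjusted p below 0.05, the Oas family from 4 of 8 to 2 and the guanylate-binding proteins from 5 of 10 to 3, while 6 of 7 Schlafen genes were called in both fits. Of the 4 interferon receptor chains none was higher and Ifngr1 was lower with itaconic acid (-0.27, edgeR adjusted p = 0.0332), a call lost without MetSA replicate 3.

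Malonic acid, with a shorter chain and without the methyl branch, lay on the other side of MetSA for these genes. All 10 guanylate-binding proteins, all 9 immunity-related GTPases and all 21 class I genes tested were lower with malonic acid than with MetSA, as were 29 of 32 antiviral effectors, with 1 higher. Malonic acid minus MetSA was -4.72 (95% interval -5.38 to -4.07, edgeR adjusted p = 1.88e-06) for Ifi44 and -4.15 (95% interval -4.69 to -3.60, edgeR adjusted p = 1.21e-06) for Ifit2. Ifit2 was at 1752 ± 436 CPM with MetSA, 3554 ± 286 CPM with itaconic acid and 98.9 ± 18.9 CPM with malonic acid. For Il10 the difference was -3.91 (95% interval -4.32 to -3.50, edgeR adjusted p = 1.55e-11), while itaconic acid and MetSA did not differ by the test, at 0.22 (95% interval -0.10 to 0.54, edgeR adjusted p = 0.45).

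Outside the interferon genes the 3 acids were ordered in other ways. Cell division set itaconic acid further from medium: 21 of 36 mitosis genes were lower with itaconic acid than with MetSA and none higher, whereas 14 were higher with malonic acid. Without MetSA replicate 3 the 21 became 13. Cholesterol genes were higher with itaconic acid in 12 of 26 and lower with malonic acid in 13. Of the NRF2 list 15 of 30 were higher with malonic acid than with MetSA and 2 lower, and Txnrd1 and Gclc were higher by 0.59 and 0.63 (edgeR adjusted p = 2.02e-05 and 7.99e-07). Between itaconic acid and MetSA, Txnrd1 differed by 0.11 (95% interval -0.06 to 0.29, edgeR adjusted p = 0.479) and Gclc by 0.06 (95% interval -0.08 to 0.21, edgeR adjusted p = 0.662). Without MetSA replicate 3 these differences were 0.23 (edgeR adjusted p = 0.0784) and 0.13 (edgeR adjusted p = 0.369). In that fit 5 genes of the NRF2 list were higher with itaconic acid than with MetSA and none lower, where the fit of all libraries called 1 higher and 2 lower. Prdx5 was at 194 ± 21.3 CPM with MetSA, 207 ± 6.30 CPM with itaconic acid and 234 ± 14.1 CPM with malonic acid, and the difference was 0.09 (95% interval -0.07 to 0.26, edgeR adjusted p = 0.541) for itaconic acid and 0.27 (95% interval 0.11 to 0.44, edgeR adjusted p = 0.0115) for malonic acid. The malonic acid call for Prdx5 was lost without MetSA replicate 3, at 0.19 (edgeR adjusted p = 0.055). A p above the threshold does not show that the compounds act alike. Vwf, the clotting factor gene, was lower with MetSA than with either relative, at 19.3 ± 1.20 CPM with MetSA, 29.3 ± 1.68 CPM with itaconic acid and 88.7 ± 5.66 CPM with malonic acid, with differences of 0.60 and 2.20 (edgeR adjusted p = 3.03e-04 and 3.87e-13). Ctla2a was higher with malonic acid by 1.24 and did not differ by the test between itaconic acid and MetSA, at 0.15 (95% interval -0.01 to 0.31, edgeR adjusted p = 0.3).

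**Figure D5:**
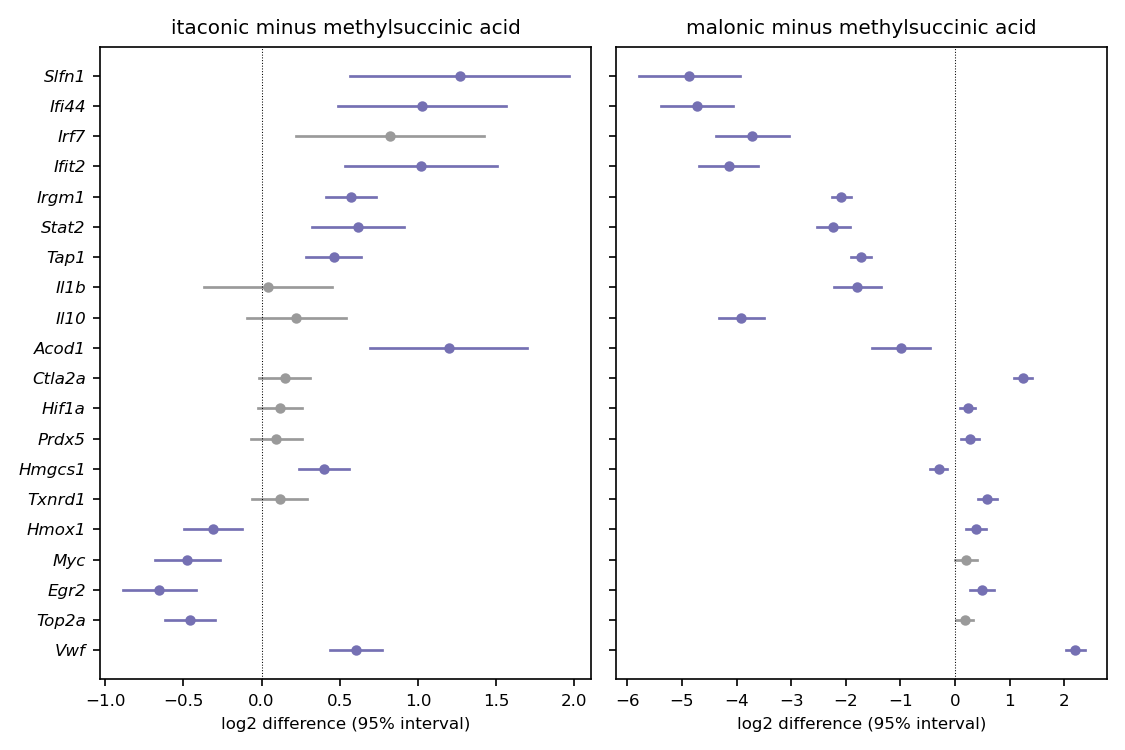
Log2 difference of itaconic acid (left) and malonic acid (right) from methylsuccinic acid for 20 genes, as points with 95% intervals from the edgeR fit; purple was called at an adjusted p below 0.05, grey was not, and the 2 panels have different scales. Interferon genes lie right of 0 on the left and far left of 0 on the right, while the interval for Prdx5 spans 0 for itaconic acid. The itaconic acid calls of Slfn1, Ifi44 and Ifit2 were lost without MetSA replicate 3.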

How the data were processed

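Poly(A) RNA was sequenced from 12 libraries, of which the 3 MetSA and 3 M libraries are compared here and the 3 IA and 3 MA libraries enter the same fit. The authors deposited whole-number counts per gene, not normalised. STAR, featureCounts and mm10 are named in the submitters' processing notes, and the sources used here do not give their versions, the annotation or the strand setting of the counting, so a gene and its antisense partner cannot be told apart. Of counts from 1 to 9, 66.1% were even, against 50.9% of counts of 1000 or more, so both mates of a pair may have been counted, and halved counts were run as an alternative. Genes without a symbol held 0.0267% of the counts. Chi-square tests set every pair of libraries within M and within MetSA apart beyond sampling noise (13.9 to 59.98 per degree of freedom).

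Genes were filtered with filterByExpr, which kept 99.97% to 99.98% of the counts, and scaled by TMM. The test was edgeR's quasi-likelihood test (edgeR 4.0.16, limma 3.58.1, R 4.3.3) on 1 fit of 4 groups with 8 residual degrees of freedom, Benjamini-Hochberg adjusted over 14113 genes. It was tested on simulated data that gave all genes the same dispersion and held no deviating library. That simulation cannot show how the test behaves with a library like MetSA replicate 3. DESeq2 1.42.0 was an alternative. The other alternatives were size factors or upper-quartile scaling, no filter, a filter of 5 CPM in 3 libraries, a fit of 6 libraries, the replicate block and leaving out each replicate. Intervals are approximate 95% intervals of the log2 difference between groups, with a standard error taken from the edgeR test. They reflect the spread between these libraries and are not the range of single libraries. The rule named the 15 largest rises and falls among called genes at 10 CPM or more without overlap, 6 genes of smallest adjusted p per direction, up to 4 called members of each list by adjusted p and up to 2 against its median, the 6 largest differences of IA and MA from MetSA per direction, and a set of key genes. Comparison, lists, rule and promoter windows were chosen with earlier results of these data known. Lists are described by counts and medians, with no test over a list. A gene was called uncertain where 10% or more of its 100-base stretches occur in another gene. Gene coordinates are GENCODE M21 on GRCm38 and promoters are RefSeq's of GRCm38.p6, both 1-based. Some genes are not reported here.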

Additional observations from a re-analysis of the deposited data

How the results depend on the processing

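Of 244 named genes called for MetSA against M, 224 kept their call and direction under every alternative in which they were tested. A further 20 lost the call under at least 1, and 0 reversed. With the stricter filter 239 of the 244 were tested, and with 6 libraries 243. These genes were chosen largely for small adjusted p or large changes in the main fit, so they do not stand for all called genes. Of all 2989 called genes, 2541 were also called without MetSA replicate 3. Among the 244 named genes the losses were 14 without MetSA replicate 1, 10 without MetSA replicate 2, 1 without MetSA replicate 3, 13 without M replicate 1, 9 without M replicate 2, 5 without M replicate 3, 12 with 6 libraries, 4 with upper-quartile scaling, and 1 each with no filter and the replicate block. Genes called lower numbered 1204 and were 1895 with upper-quartile scaling and 725 to 1224 when 1 replicate was left out (725 without M replicate 1), and those called higher were 1389 to 1758 against 1785. Upper-quartile scaling moved the median of all genes from -0.01 to -0.07. DESeq2 called 1930 higher and 1367 lower, and the 6 libraries alone gave 1400 and 887.

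For IA against MetSA the 560 higher and 304 lower calls were 902 and 431 with DESeq2. Leaving out 1 replicate gave 320 to 591 higher and 97 to 361 lower. The same for MA against MetSA gave 1261 to 1705 higher and 1750 to 2100 lower. The 7 lower calls of the NRF2 list were 12 with upper-quartile scaling and reached from 5 to 14 when 1 replicate was left out, with 14 without MetSA replicate 3. The cause of these moves was not tested.

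The labels do not say that the replicate numbers pair the samples, so the main fit did not treat them as pairs. Deviations of same-numbered M and MetSA libraries from their group means correlated at 0.060, 0.097 and 0.030, none over 0.1. Those of differently numbered M and MetSA libraries correlated at -0.072 to 0.009, below every same-numbered value. As a hint from the data, 12 of 12 libraries correlated best with their own number over all groups. With the replicate block, 2031 genes were called higher and 1496 lower for MetSA against M, and 2969 of the 2989 genes were among them. For IA against MetSA the block gave 882 and 531, and for MA against MetSA 1922 and 2293. Genes near or below the filter cannot be judged at this depth.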
